A study of Mus musculus with 6 samples.

Results

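The lysosomal genes described here are 44 genes for acid hydrolases, their helper proteins and proteins of the lysosomal membrane, together with Tfeb, a transcription factor of lysosomal genes. They were taken from a list of 44 symbols by matching each symbol to probe sets that carry a single gene name, with the brighter probe set kept where a gene had several. All 44 were measured, among 19661 genes tested. They were compared between megakaryocyte-erythroid progenitors of Fog1+/+ mice and of Fog1ki/ki mice, which carry a Fog1 knock-in on both alleles. Both genotypes are labelled with the strain B6.129, and the labels give neither the age of the mice nor how many animals stand behind an array. The cells came from bone marrow and were sorted as Kit-positive cells without lineage markers, Sca1 or CD34 and with low FcγRII/III. Each genotype had 3 arrays, called biological replicates, so p-values measure the spread between these arrays. What the knock-in alters is not stated in the labels. As known of this mouse line rather than from the files, the changed FOG1 has lost its contact with NuRD, a chromatin complex, and the study compared transcripts with and without that contact.

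Lysosomes are acidic compartments in which proteases, glycosidases, sulphatases and lipases break down material taken up from outside or delivered by autophagy. Most of the soluble enzymes carry a mannose 6-phosphate tag that sorts them to the lysosome, and the inside of the membrane is covered by heavily glycosylated proteins such as LAMP1 and LAMP2. TFEB and its relatives bind short E-box-like sites, called CLEAR elements, near the starts of many lysosomal genes. In the red cell lineage, lysosomes and autophagy clear organelles late in maturation, while macrophages, granulocytes and mast cells carry large lysosomal compartments or granules derived from them.

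Levels are log2 RMA values, and differences are Fog1ki/ki minus Fog1+/+ on that scale. RMA values of different probe sets do not order transcripts by abundance, so levels are compared only between arrays for the same gene. The lower quartile of the arrays lay between 4.81 and 4.92. The erythroid transcription factor gene Klf1 was well above it, at 8.32 ± 0.05 in Fog1+/+ and 8.30 ± 0.06 in Fog1ki/ki (SD, n = 3 each). The excluded stem cell marker Cd34 lay below it, at 4.37 ± 0.03 and 4.48 ± 0.09. The 19 erythroid genes measured, Klf1 among them, had a median difference of -0.09, with 16 below 0 and 3 above. Gata1 differed by -0.29 (SE 0.11, limma adjusted p = 0.435), without overlap between the genotypes. The targeted gene, Zfpm1, differed by 0.05 (SE 0.13, limma adjusted p = 0.948). Replicate 3 of each genotype had low levels of the Y-linked gene Uty (3.96 and 3.85, against at least 8.18 elsewhere) and high levels of Xist, the RNA of the inactive X chromosome (11.02 and 11.03). Xist was at 5.18 to 5.90 in the other arrays except Fog1ki/ki replicate 2, which had Xist at 9.13 beside Uty at 8.18. In sorted populations such as these, fewer cells of a type and less RNA per cell cannot be told apart.

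Of the 44 genes, 2 fell in Fog1ki/ki, 0 rose and 42 stayed short of an adjusted p of 0.05 over all genes in limma. The genes that fell were Npc2, which carries cholesterol inside the lysosome, and Ctsl, the cysteine protease cathepsin L. Of all genes tested, 0.773% passed in either direction, 0.397% as lower and 0.376% as higher. Without adjustment, 6 members were lower and 2 higher at p under 0.05, against 4.58% and 4.99% of all genes. Those 6 were Npc2, Ctsl, Arsb, Ctsb, Lipa and Lamp2, and the others were Mcoln1 and Tfeb. The median difference of the members was -0.04, beside 0.02 for all genes. In all, 25 members lay below 0 and 19 above. The genotypes did not overlap in 7 members as lower and 4 as higher, against 6.53% and 8.31% of all genes.

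**Figure D1:**
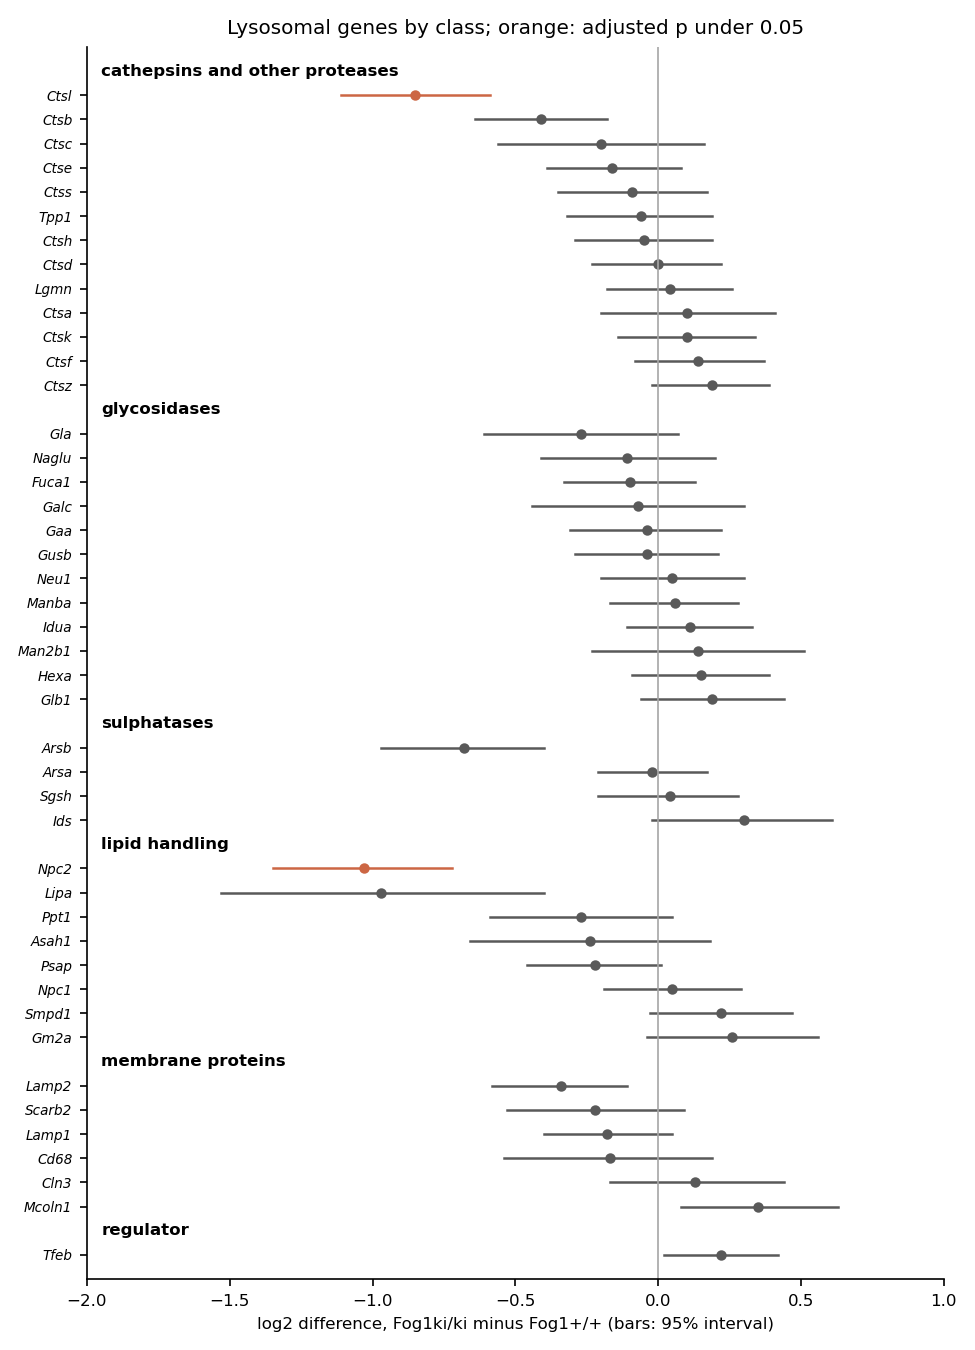
Log2 difference (Fog1ki/ki minus Fog1+/+, horizontal axis) of each of the 44 genes, grouped by class, with its 95% interval from limma. Npc2 at -1.03 and Ctsl at -0.85, in orange, are the genes past the threshold, Lipa and Arsb lie near them, and the glycosidases all lie between -0.27 and 0.19.

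Lipid handling held the widest range of differences. Of its 8 genes 1 fell, 0 rose and 7 did not pass, with a median difference of -0.23 (-0.14 without Fog1ki/ki replicate 3) and values from -1.03 to 0.26. Npc2 is a small soluble protein that binds cholesterol in the lysosome and hands it to the membrane protein NPC1 for export. It measured 9.46, 9.59 and 9.54 in Fog1+/+ and 8.43, 8.80 and 8.26 in Fog1ki/ki. Every Fog1ki/ki array lay below every Fog1+/+ array, by at least the distance from 8.80 to 9.46. The difference was 2.05-fold, or -1.03 in log2 (SE 0.14, 95% interval -1.35 to -0.72, limma adjusted p = 0.0127), and 38 of the 19661 genes had a lower value. With all arrays kept, Npc2 passed in every alternative run (limma adjusted p from 0.0094 to 0.0254). Leaving out Fog1+/+ replicate 1, 2 or 3 took it over the threshold (limma adjusted p = 0.0542, 0.0525 and 0.0763), while its log2 difference stayed between -1.19 and -0.92.

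Npc1, the membrane partner of NPC2, did not show that difference, at 0.05 (SE 0.11, 95% interval -0.19 to 0.29, limma adjusted p = 0.931). The intervals of Npc1 and Npc2 do not overlap, although the difference between the genes was not itself tested. Lipa, the acid lipase that frees cholesterol and fatty acids from the lipids of endocytosed lipoproteins, works just upstream of both. Lipa measured 8.48, 8.84 and 8.54 in Fog1+/+ and 8.09, 7.87 and 7.0 in Fog1ki/ki. The genotypes did not overlap, and Fog1ki/ki replicate 3 lay far below the other arrays. Its log2 difference of -0.97 (SE 0.25, limma adjusted p = 0.190) was close in size to that of Npc2 but did not pass, and it was -0.64 without Fog1ki/ki replicate 3 (limma adjusted p = 0.147).

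Other lipid genes differed less. Ppt1, which removes palmitate from proteins, measured 8.91, 9.23 and 9.08 in Fog1+/+ and 9.01, 8.54 and 8.86 in Fog1ki/ki, and the groups overlapped (log2 difference -0.27, limma adjusted p = 0.603). Smpd1, the acid sphingomyelinase, was at 7.15, 6.96 and 7.13 in Fog1+/+ and at 7.48, 7.21 and 7.20 in Fog1ki/ki. All 3 Fog1ki/ki arrays of Smpd1 lay above the Fog1+/+ arrays, by a margin smaller than the spread within a genotype, and the log2 difference of 0.22 did not pass (limma adjusted p = 0.600). Gm2a, the activator protein that presents GM2 ganglioside to hexosaminidase, gave 5.65, 5.82 and 6.07 against 6.26, 6.12 and 5.93, with overlap (log2 difference 0.26, limma adjusted p = 0.604). Psap, the precursor of the saposin activator proteins, had a log2 difference of -0.22. The acid ceramidase gene Asah1 had one of -0.24, which rested on Fog1ki/ki replicate 3 (5.91, against 6.61 or more elsewhere) and was 0.01 without it.

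Among 13 genes for cathepsins and other proteases, 1 fell, 0 rose and 12 did not pass, with a median difference of -0.05. Cathepsin L is a cysteine endopeptidase with broad activity in lysosomal protein breakdown. Ctsl measured 10.13, 10.26 and 10.12 in Fog1+/+ and 9.38, 9.48 and 9.11 in Fog1ki/ki. The Fog1+/+ arrays lay within a narrow band, and all Fog1ki/ki arrays lay below it. Ctsl was 1.80-fold lower, or -0.85 in log2 (SE 0.11, 95% interval -1.11 to -0.59, limma adjusted p = 0.0140). With all arrays kept it passed in every alternative run (limma adjusted p from 0.00816 to 0.0266). Leaving out Fog1+/+ replicate 1, 2 or 3 took it over the threshold (limma adjusted p = 0.0649, 0.0635 and 0.0705), with log2 differences between -0.92 and -0.74 over all alternatives.

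Ctsb encodes cathepsin B, a related cysteine protease that overlaps with cathepsin L in its substrates. Ctsb measured 8.43, 8.32 and 8.38 in Fog1+/+ and 8.10, 7.82 and 7.98 in Fog1ki/ki. The genotypes did not overlap, but the log2 difference of -0.41 (SE 0.10) did not pass (limma adjusted p = 0.164). Ctse, an aspartic protease known from red cells and stomach, was at 11.84, 11.92 and 11.75 in Fog1+/+ and at 11.82, 11.56 and 11.66 in Fog1ki/ki. Those arrays overlapped (log2 difference -0.16, limma adjusted p = 0.697).

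On the other side of 0, Ctsz, a cysteine carboxypeptidase, measured 7.89, 8.08 and 8.04 in Fog1+/+ and 8.17, 8.18 and 8.22 in Fog1ki/ki. All Fog1ki/ki arrays of Ctsz were above the Fog1+/+ arrays, and the log2 difference of 0.19 did not pass (limma adjusted p = 0.585). Ctsf, another papain-like protease, gave 6.58, 6.75 and 6.79 against 6.74, 6.93 and 6.88, with overlap (log2 difference 0.14, limma adjusted p = 0.719). Ctsd, the main lysosomal aspartic protease, had a log2 difference of 0.00 with a 95% interval of -0.23 to 0.22. Ctsa (the protective protein of the galactosidase complex), Ctsc (the activator of granule serine proteases), Tpp1 (a tripeptidyl peptidase), Ctss, Ctsh, Ctsk and the asparaginyl endopeptidase Lgmn had differences between -0.20 and 0.10. Of these, Ctsh and Lgmn lay below the lowest lower quartile in both genotypes and Ctsk in Fog1+/+, so a difference in them could hardly be measured.

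**Figure D2:**
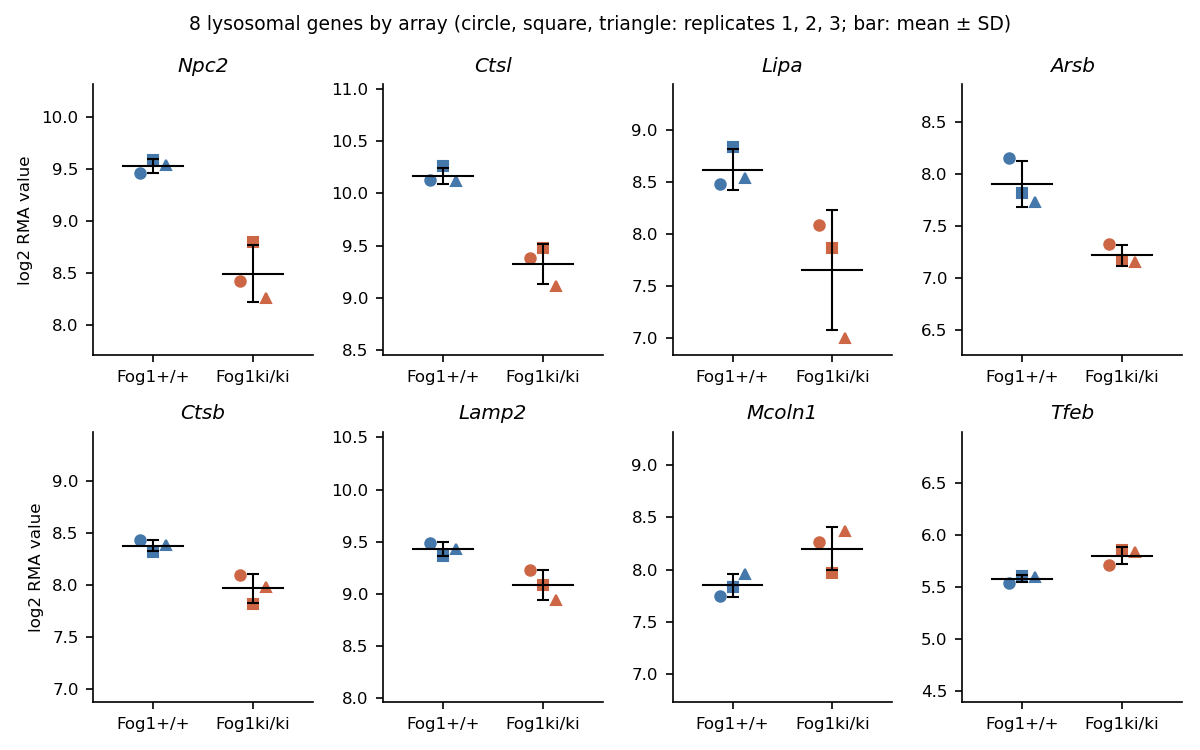
Log2 RMA values in each of the 6 arrays of the 8 lysosomal genes with an unadjusted limma p under 0.05. The mean and SD of each genotype are shown, and the vertical axis covers the same log2 range in every panel. The genotypes do not overlap in any of these genes, which follows in part from this choice. The gap is widest in Npc2, and Lipa has its lowest array at 7.0.

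None of the 12 glycosidase genes passed in limma (0 of 12, and also 0 at an unadjusted p under 0.05). Their median difference was 0.01, with 6 genes above 0 and 6 below. Gla, the alpha-galactosidase that acts on globosides, had the lowest value, with 7.91, 7.60 and 7.86 in Fog1+/+ and 7.64, 7.71 and 7.20 in Fog1ki/ki (log2 difference -0.27, limma adjusted p = 0.629). Its low Fog1ki/ki array was again replicate 3, and the groups overlapped. Fuca1, the alpha-fucosidase, measured 9.36, 9.57 and 9.41 in Fog1+/+ and 9.46, 9.31 and 9.27 in Fog1ki/ki (log2 difference -0.10, 95% interval -0.33 to 0.13). Gusb, the beta-glucuronidase, measured 8.82, 8.68 and 8.69 in Fog1+/+ and 8.82, 8.50 and 8.76 in Fog1ki/ki (log2 difference -0.04, 95% interval -0.29 to 0.21). In both genes the arrays of the genotypes lay among each other.

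The glycosidases with the highest differences also overlapped between genotypes. Glb1, the beta-galactosidase, gave 7.05, 7.30 and 7.35 against 7.46, 7.31 and 7.51 (log2 difference 0.19, limma adjusted p = 0.647). Hexa, the alpha subunit of hexosaminidase A, gave 6.96, 6.99 and 6.92 against 7.29, 6.96 and 7.06 (log2 difference 0.15, limma adjusted p = 0.730). Galc, Gaa, Neu1, Man2b1, Manba, Naglu and Idua, which act on galactolipids, glycogen, sialic acid, mannose, heparan sulphate and related chains, had differences between -0.11 and 0.14. The widest interval among these reached from -0.23 to 0.51, in Man2b1.

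Sulphatases remove sulphate groups from lipids and glycosaminoglycans, and none of the 4 measured passed (0 in limma, 1 lower at an unadjusted p under 0.05). Arsb, which takes sulphate from dermatan and chondroitin chains, stood apart from the other three. It measured 8.15, 7.82 and 7.73 in Fog1+/+ and 7.33, 7.17 and 7.15 in Fog1ki/ki. All Fog1ki/ki arrays lay below all Fog1+/+ arrays, and the difference of -0.68 (SE 0.12, 95% interval -0.97 to -0.40) had a limma adjusted p of 0.0521, just outside the threshold. It was inside it with array weights (0.0484), with the replicate number as a block (0.0408) and without the dimmest 25% of genes (0.0410), and ranged up to 0.179 over all 15 alternative fits. Arsb was the one member with a further probe set, which measured 6.75, 6.40 and 6.53 in Fog1+/+ and 6.03, 5.68 and 6.22 in Fog1ki/ki. That probe set also had no overlap between genotypes, at -0.58 in log2 (SE 0.15, limma adjusted p = 0.260 over all probe sets).

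Ids, which removes sulphate from iduronate in heparan and dermatan sulphate, had 7.08, 6.92 and 7.03 in Fog1+/+ and 7.60, 7.06 and 7.26 in Fog1ki/ki. Its arrays overlapped slightly (log2 difference 0.30, SE 0.14, limma adjusted p = 0.556). Sgsh, the heparan N-sulphatase, measured 6.52, 6.26 and 6.35 in Fog1+/+ and 6.30, 6.54 and 6.40 in Fog1ki/ki (log2 difference 0.04, 95% interval -0.21 to 0.28). Arsa, which acts on sulphatides, measured 5.89, 5.89 and 5.87 in Fog1+/+ and 5.89, 5.88 and 5.81 in Fog1ki/ki (log2 difference -0.02, 95% interval -0.21 to 0.17). In these genes the arrays of the genotypes overlapped.

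None of the 6 membrane protein genes passed (0 in limma, with 1 in each direction at an unadjusted p under 0.05), and their median difference was -0.18 (-0.08 without Fog1ki/ki replicate 2). Lamp2, a main membrane glycoprotein that also serves in autophagy, measured 9.49, 9.36 and 9.43 in Fog1+/+ and 9.23, 9.08 and 8.94 in Fog1ki/ki. No Fog1ki/ki array reached the Fog1+/+ range (log2 difference -0.34, SE 0.10, limma adjusted p = 0.276). Lamp1, its abundant relative, gave 9.29, 9.23 and 9.32 against 9.18, 8.94 and 9.19, also without overlap, by a narrow gap (log2 difference -0.18, limma adjusted p = 0.643). Scarb2, the membrane receptor that carries glucocerebrosidase to lysosomes, differed by -0.22, and Cd68, a membrane glycoprotein best known from macrophages, by -0.17. Neither passed.

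Mcoln1, the calcium channel of the lysosomal membrane, had the highest difference of all 44 genes. It measured 7.75, 7.83 and 7.96 in Fog1+/+ and 8.26, 7.97 and 8.37 in Fog1ki/ki. The groups did not overlap, but Fog1ki/ki replicate 2 lay 0.01 above the highest Fog1+/+ array, and the log2 difference of 0.35 (SE 0.12) did not pass (limma adjusted p = 0.356). Cln3, a membrane protein lost in juvenile Batten disease, had 7.37, 7.56 and 7.33 in Fog1+/+ and 7.56, 7.31 and 7.79 in Fog1ki/ki, with overlap (log2 difference 0.13, limma adjusted p = 0.822). Tfeb, the regulator, measured 5.54, 5.61 and 5.60 in Fog1+/+ and 5.71, 5.86 and 5.84 in Fog1ki/ki. Every Fog1ki/ki array of Tfeb was higher, and the log2 difference of 0.22 (SE 0.09, 95% interval 0.02 to 0.42) did not pass (limma adjusted p = 0.473).

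Deviations from the Fog1+/+ mean were averaged over the genes of each class in each array. Genes above and below 0 offset each other in such a mean. For lipid handling the mean was -0.11, -0.24 and -0.47 in Fog1ki/ki replicates 1, 2 and 3, against -0.07 to 0.04 in the Fog1+/+ arrays. Npc2 and Lipa, at -1.03 and -0.97, weigh most in it, and the other genes of that class differed by -0.27 to 0.26. For the glycosidases the mean was 0.04, 0.02 and -0.03, within 0.01 of the Fog1+/+ range of -0.03 to 0.03. For the cathepsins and other proteases it was -0.05, -0.13 and -0.11. Over all 44 genes the mean was -0.02, -0.11 and -0.14, against -0.02 to 0.02 in the Fog1+/+ arrays. By this mean Fog1ki/ki replicate 1 was nearly level with Fog1+/+, but not in the genes that fell. That array measured 8.43 for Npc2 and 9.38 for Ctsl, against at least 9.46 and 10.12 in Fog1+/+.

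**Figure D3:**
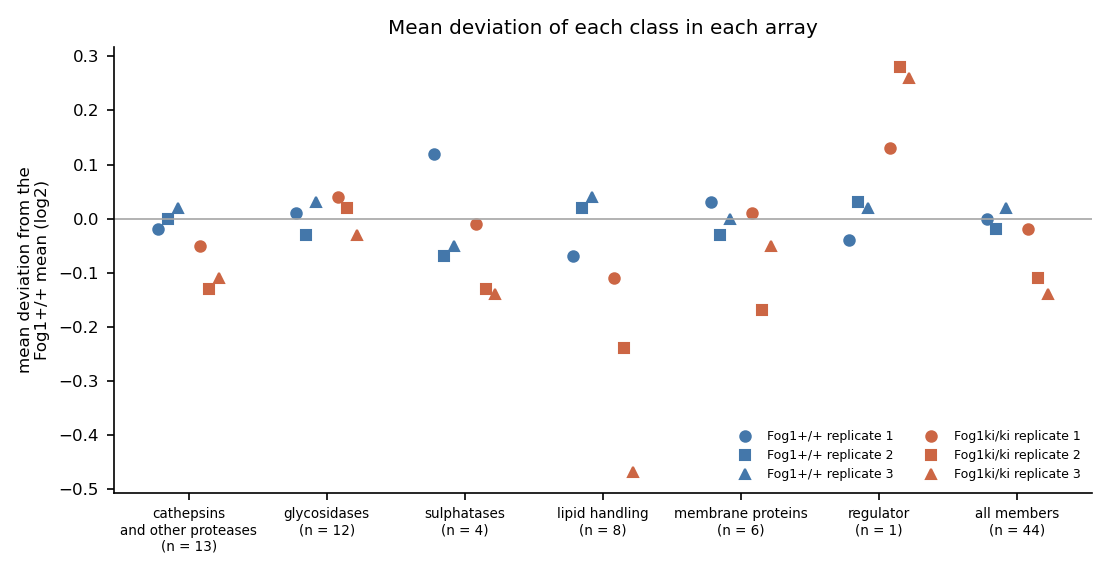
Mean log2 deviation from the Fog1+/+ mean (vertical axis) over the genes of each class, 1 point per array. Lipid handling, which holds Npc2 and Lipa, shows the lowest points, down to -0.47 in Fog1ki/ki replicate 3. The glycosidases of both genotypes lie between -0.03 and 0.04.

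For 36 of the 44 genes the 95% interval of the difference included 0, and over those genes the interval bounds reached from -0.66 (Asah1) to 0.61 (Ids). A change of 2-fold in array values thus lay outside the intervals of these 36 genes. The median interval over all 44 genes extended 0.25 to either side of its estimate. For the dim genes Ctsh, Lgmn and Ctsk, whose folds are understated, the intervals do not exclude such a change in the transcript. The 4 members on chromosome 8, which carries Zfpm1, were Man2b1, Asah1, Lamp1 and Mcoln1, and none of them passed (0 of 4 in limma, 1 at an unadjusted p under 0.05). Npc2 and Ctsl lie on chromosomes 12 and 13.

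Promoter sequences were set beside these results because TFEB acts through short sites near gene starts and FOG1 acts through GATA factors. RefSeq promoter windows on GRCm38.p6, from 250 bases before to 50 bases after an annotated start, were found for 39 of the 44 genes, in 45 windows. The windows of the genes that fell are shown in full, in lower case, with any CACGTG or GATA hexamer (AGATAA and its variants that begin with T, end in G, or both, on either strand) in capitals. The Npc2 window is chr12:84773063-84773362 and the Ctsl window chr13:64370471-64370770, both on the minus strand.
Npc2: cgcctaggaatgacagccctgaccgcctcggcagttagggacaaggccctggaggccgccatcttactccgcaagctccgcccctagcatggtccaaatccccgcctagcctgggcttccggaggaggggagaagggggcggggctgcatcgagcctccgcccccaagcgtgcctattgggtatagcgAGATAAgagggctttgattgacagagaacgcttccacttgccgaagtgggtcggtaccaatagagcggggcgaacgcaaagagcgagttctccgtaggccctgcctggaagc
Ctsl: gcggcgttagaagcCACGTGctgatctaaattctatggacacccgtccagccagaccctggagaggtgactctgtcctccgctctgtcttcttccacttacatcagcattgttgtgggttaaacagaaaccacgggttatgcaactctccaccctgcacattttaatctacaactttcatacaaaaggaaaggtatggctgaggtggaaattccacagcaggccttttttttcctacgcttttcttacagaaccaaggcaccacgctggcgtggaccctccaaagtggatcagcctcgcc

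The Npc2 window held 1 match, an AGATAA that starts 62 bases before the annotated start, and no CACGTG. The Ctsl window held 1 match, a CACGTG that starts 236 bases before the annotated start, and no GATA hexamer. CACGTG, the core of the CLEAR element, was found in the windows of 14 of the 39 genes (35.9%), against 9.47% of the 15401 tested genes that have a window. By window, it was in 31.1% of the members' windows and 7.15% of all 32851. The longer TCACGTGA, which contains it, was in the windows of 5 genes (12.8%, against 1.5% of genes), and the full CLEAR palindrome, which contains both, was in Cln3 alone among the members (2.56%, against 0.519%). All of these motifs read the same on both strands. The GATA hexamers were found in 11 of the 39 genes (28.2%), beside 28.0% of tested genes.

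The windows around the TCACGTGA matches are shown here to let their flanks be compared, with the CACGTG core in capitals and all coordinates on GRCm38.p6. Each is read along the strand of its gene, which is plus for Ctsa and Mcoln1 and minus for Ctsd, Gla and Cln3.
Cln3, chr7:126583342-126583367: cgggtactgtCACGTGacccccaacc
Ctsa, chr2:164833751-164833776: agcaaactgtCACGTGatgcagatgc
Ctsa, chr2:164833768-164833793: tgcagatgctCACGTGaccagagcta
Ctsd, chr7:142387910-142387935: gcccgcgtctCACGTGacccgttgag
Gla, chrX:134601217-134601242: agcgattgatCACGTGagcatctacg
Gla, chrX:134601184-134601209: agatctcggtCACGTGagcaactctc
Mcoln1, chr8:3500464-3500489: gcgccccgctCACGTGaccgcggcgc

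These 5 genes did not move together, with log2 differences of 0.13 for Cln3, 0.10 for Ctsa, 0.00 for Ctsd, -0.27 for Gla and 0.35 for Mcoln1. Over the 14 genes with CACGTG the differences ran from -0.85 to 0.35, with a median of 0.02, 7 above 0 and 7 below. Over the 25 genes without it they ran from -1.03 to 0.30, with a median of -0.06, 11 above 0 and 14 below. Of the genes that fell, Ctsl had the hexamer and Npc2 did not, and neither Lipa nor Arsb had it in its window. A match describes letters only and says nothing of binding.

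Other genes of the lysosomal pathway were read from lists that hold none of the 44 genes. Of 25 further hydrolases and their cofactors, 1 fell, 0 rose and 24 did not pass, and their median difference was -0.14. At an unadjusted p under 0.05, 7 of the 25 were lower and 1 higher, against 4.58% and 4.99% of all genes. The one that fell was Pgap6, a phospholipase that acts on GPI anchors and is not a classical lysosomal hydrolase. It measured 7.78, 7.60 and 7.82 in Fog1+/+ and 7.19, 7.19 and 7.17 in Fog1ki/ki (log2 difference -0.55, SE 0.09, limma adjusted p = 0.0389). The Fog1ki/ki arrays were nearly identical and all lower, yet the call was lost when any 1 of the 6 arrays was left out (limma adjusted p from 0.0657 to 0.204) and with the replicate number as a block (limma adjusted p = 0.0881). It passed in 5 of the 15 alternative fits.

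Larger differences in that list did not pass. Fuca2, an alpha-fucosidase found in plasma, measured 8.50, 9.04 and 8.98 in Fog1+/+ and 8.18, 7.38 and 7.66 in Fog1ki/ki (log2 difference -1.10, limma adjusted p = 0.0630). Scpep1, a serine carboxypeptidase, measured 7.45, 7.76 and 7.03 in Fog1+/+ and 7.22, 5.51 and 5.96 in Fog1ki/ki (log2 difference -1.18, limma adjusted p = 0.317). Scpep1 overlapped between genotypes through Fog1ki/ki replicate 1, while Fuca2 did not overlap. Smpdl3a, a relative of acid sphingomyelinase, differed by -0.60 (limma adjusted p = 0.115).

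Of 29 further membrane proteins, 1 rose, 0 fell and 28 did not pass. The one that rose was Cd63, a tetraspanin of late endosomes, lysosomes and mast cell granules, at 10.84, 9.83 and 10.46 in Fog1+/+ and 11.81, 12.01 and 11.52 in Fog1ki/ki (log2 difference 1.40, limma adjusted p = 0.0355). Its direction was opposite to that of Npc2 and Ctsl. Cd63 did not keep its call without Fog1+/+ replicate 3 (limma adjusted p = 0.135), without Fog1ki/ki replicate 1, 2 or 3 (limma adjusted p = 0.0959, 0.151 and 0.0618) with arrays centred on their medians (limma adjusted p = 0.0564), with all probe sets tested (limma adjusted p = 0.0627) and with a term for the arrays with low Y-linked levels (limma adjusted p = 0.0553). It passed in the other 8 of 15 alternative fits. The chloride transporter gene Clcn7 differed by -0.55, which did not pass (limma adjusted p = 0.345).

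None passed among 19 subunits of the proton pump that acidifies lysosomes (0 in limma, with 3 at an unadjusted p under 0.05, all lower), among them Atp6v1e1 at -0.42 (limma adjusted p = 0.130). None passed among 31 genes for delivery receptors and sorting (0 in limma, 1 lower at an unadjusted p under 0.05, Vps26a at -0.47). The receptor gene Igf2r, which binds the mannose 6-phosphate tag, had a log2 difference of -0.02. The 19 relatives of Tfeb and genes of mTORC1 docking gave 0 in limma and 1 lower at an unadjusted p under 0.05, Rraga, a GTPase that recruits mTORC1 to lysosomes, at -0.60 (limma adjusted p = 0.296). Among the relatives of Tfeb, Mitf had a log2 difference of 0.14, Tfe3 one of -0.06 and Tfec one of 0.11. The 11 cystatins and other inhibitors gave 0 in limma, with 2 lower at an unadjusted p under 0.05. These were Serpinb6a at -0.44 (limma adjusted p = 0.209) and Cst7 at -0.34 (limma adjusted p = 0.342). Cst3, the secreted inhibitor of cathepsins, had a log2 difference of 0.03. The 26 autophagy genes gave 0 in limma, with 2 higher at an unadjusted p under 0.05, Map1lc3a (0.30) and Ulk1 (0.27). Over these lists together, 160 genes were measured, of which 1 rose and 1 fell, with a median difference of -0.02. Before adjustment 5 of them were higher and 19 lower at p under 0.05, against 4.99% and 4.58% of all genes.

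**Figure D4:**
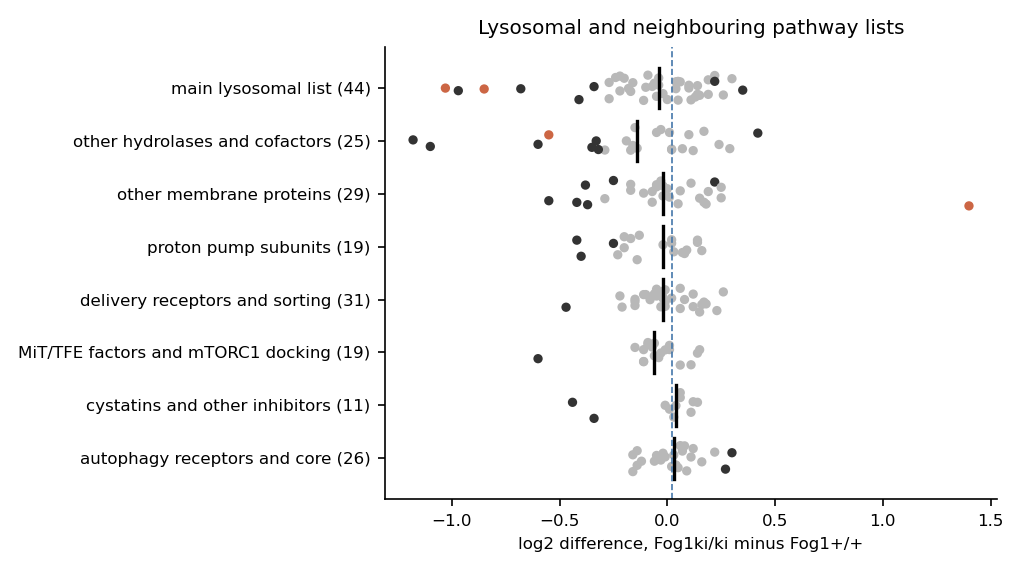
Log2 difference (horizontal axis) of every gene in the main lysosomal list and in 7 pathway lists, with the number measured in brackets, each list's median as a black bar and the median of all genes, 0.02, as a dashed line. Orange points passed over all genes, dark points had an unadjusted p under 0.05, and the far right point is Cd63 at 1.40.

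Macrophages are rich in lysosomes, so their markers are given beside the genes that fell. None of 19 monocyte and macrophage genes passed (0 in limma, 1 higher at an unadjusted p under 0.05), with a median difference of 0.03. Their summed linear RMA values ran from 743 to 808 in Fog1+/+ and from 748 to 858 in Fog1ki/ki, and 8 of the 19 lay below the lowest lower quartile in both genotypes. The macrophage marker Adgre1 was among those 8, at 3.94 to 3.98 in all arrays, and Csf1r lay close to the quartile, at 4.83 to 5.27. Of 17 mast cell genes 3 rose, 0 fell and 14 did not pass. At an unadjusted p under 0.05, 7 were higher and 1 lower, against 4.99% and 4.58% of all genes. Their summed values ran from 3998 to 4571 in Fog1+/+ and from 4280 to 5891 in Fog1ki/ki. The brightest genes weigh most in these sums, here Srgn (means of 11.13 in Fog1+/+ and 11.17 in Fog1ki/ki) and the sorting marker Kit (10.29 and 9.91). Ms4a2, the beta chain of the IgE receptor, was at 4.67 to 4.80 in Fog1+/+ and at 7.80 to 9.15 in Fog1ki/ki. Ms4a2 and Rgs13 passed in all 15 alternative fits, while the third, Gata2, was lost without any 1 Fog1+/+ array or Fog1ki/ki replicate 3 (limma adjusted p up to 0.0875). The summed values of 17 neutrophil genes ran from 2461 to 3472 and from 2361 to 3103, with 0 past the threshold in limma and 1 higher at an unadjusted p under 0.05. For 19 erythroid genes they ran from 23693 to 24071 and from 21426 to 23844, with 3 lower and 0 higher at an unadjusted p under 0.05. Of these genes Xk fell. Xk passed in 4 of the 15 alternative fits, and in none that left out an array (limma adjusted p from 0.0742 to 0.202). The sums of 12 megakaryocyte genes did not overlap, at 1299 to 1412 and 1575 to 1699. None of those 12 passed the threshold (4 at an unadjusted p under 0.05, 3 of them higher). Summed over all genes tested, the values were lower in Fog1ki/ki without overlap, at 5168419 to 5349585 against 5384626 to 5488688 in Fog1+/+. The sums of the 44 lysosomal genes did not overlap either, at 14890 to 15601 in Fog1+/+ and 12802 to 14348 in Fog1ki/ki. Without Npc2 and Ctsl they overlapped, at 13033 to 13604 and 11642 to 13337. Of the pathway lists, sums without overlap were lower in Fog1ki/ki for further hydrolases and proton pump subunits, and higher for further membrane proteins. In 5 further lists, of cell type markers or of immediate early and heat shock genes, the summed values did not overlap between the genotypes. Those of 12 basophil and eosinophil genes ran from 454 to 464 in Fog1+/+ and from 604 to 769 in Fog1ki/ki, with 0 past the threshold in limma and 4 higher at an unadjusted p under 0.05. For 12 stem and multipotent progenitor genes they ran from 693 to 720 and from 746 to 810 (0 past the threshold, 2 higher and 1 lower at that p), and for 11 B lymphoid genes from 531 to 678 and from 684 to 771, where 1 gene, Blnk, rose (limma adjusted p = 0.0156, but 0.0604 without Fog1+/+ replicate 3 and 0.0818 without Fog1ki/ki replicate 2). Lower sums in Fog1ki/ki were found for 13 dendritic cell genes, at 886 to 984 in Fog1+/+ and 763 to 872 in Fog1ki/ki (0 past the threshold, 1 lower at that p). They were also found for 17 immediate early and heat shock genes, at 7772 to 8578 and 6805 to 7660, with a median difference of -0.25 (0 past the threshold, 2 higher and 4 lower at that p). The sums of 12 T and NK lymphoid genes overlapped, at 533 to 614 and 593 to 596. The part of these cells and of the immediate early and heat shock genes in the differences of Npc2 and Ctsl was not tested.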

How the data were processed

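Total RNA from sorted cells was amplified, labelled with biotin and hybridised to 1-colour arrays, per the labels' protocols. The deposited values carry 2 decimals and were read as log2 from their range. The submitters' processing notes name RMA, which corrects background, makes arrays share 1 distribution and summarises probes, with software and settings not given in the sources used here. Precision is limited by the number of arrays, and folds of dim probe sets are understated. The platform annotation gave a single gene for 20777 of 25668 probe sets, and the brightest probe set stood for each of 19661 genes. The comparison was a two-sided moderated fit by genotype alone with limma 3.58.1 under R 4.3.3, adjusted over all genes by Benjamini-Hochberg. With 3 arrays a side, an exact permutation test cannot reach the threshold and was not used. The members and lists were chosen with earlier results of these data known, and the GATA hexamers after the values were seen.

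Values in every array are given for members past the threshold, the 2 smallest p-values in each direction per class, the 2 with the highest mean in classes of over 5 genes, and Tfeb. Of each pathway list, genes past the threshold or the one with the smallest p are named, and further ones were chosen after their values were seen. In a test on simulated data at the measured gene levels, limma found 10, 40, 48 and 50 of 50 genes shifted by 0.5, 1, 1.5 and 2 on the log2 scale, and called 6 of 19461 unchanged genes. The simulated noise was normal and equal in both genotypes, with the measured spreads shuffled over genes. The counts are therefore not the power for any measured gene. Tables and figures were made with Python 3.11.15, pandas 2.3.3 and matplotlib 3.10.9.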

Additional observations from a re-analysis of the deposited data

How the results depend on the processing

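With every array kept, the count of all genes past the threshold (152) stayed within 1.5 times under the alternatives run, and so did the count of 2 members. Leaving out each array in turn gave 60 to 134 genes and 0 to 2 members, with 0 members whenever a Fog1+/+ array was left out. Centring the arrays on their medians gave 43 higher and 73 lower genes, against 74 and 78, and moved the median of all genes from 0.02 to -0.03 and that of the members from -0.04 to -0.09 (glycosidases from 0.01 to -0.05). Of the 44 members, 17 changed sign in at least 1 alternative fit, and none of those had passed. Among the 24 given by array, signs turned for 3: Gusb to 0.02 with quantile normalization repeated, 0.01 without Fog1+/+ replicate 1 and 0.06 without Fog1ki/ki replicate 2, Sgsh to -0.01 with quantile normalization repeated, -0.02 with centring, -0.02 without Fog1+/+ replicate 2 and -0.03 without Fog1ki/ki replicate 2, and Arsa to 0.00 without Fog1ki/ki replicate 3. With each array left out in turn, Gusb ran from -0.10 to 0.06, Sgsh from -0.03 to 0.11 and Arsa from -0.04 to 0.00. The cause was not tested. Same-numbered arrays of the genotypes did not deviate together in every pair (correlations of 0.07, -0.01 and 0.13 across genes), so the numbers were not taken as pairs; with the replicate number as a block, 133 genes and 3 members passed, the third being Arsb. A term for the arrays with low Y-linked levels gave 127 genes and 2 members. Dim probe sets such as those of Ctsh and Lgmn limit what could be measured.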
